A study of Mus musculus with 4 samples.

Results

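Integrin and laminin subunit genes were examined in the hearts of CDF1 mice divided by exercise and cancer into a normal control group, E(−)T(−), a group with exercise only, E(+)T(−), called normal exercise, a cancer control group, E(−)T(+), and a cancer exercise group, E(+)T(+). The members were the 37 genes among 23238 symbols whose name marks an integrin alpha or beta subunit or a laminin chain. Of these, 36 are reported here. A mean of at least 4 normalized reads over the 4 libraries was reached by 29 of them, comprising 8 laminin chains, 15 integrin subunits and 6 leukocyte integrins, which are set apart. The other 7, Lama1, Lama3, Itga2, Itga10, Itgb8, Itgax and Itgae, had at most 4 reads in any library. E marks high-intensity aerobic exercise on a treadmill, and T marks CT26 murine colorectal cancer cells given through the tail vein, so the tumor-bearing groups model disseminated cancer rather than a colon tumor. E(−)T(−) mice received neither, and E(+)T(+) mice received both. All libraries are labelled with the CDF1 strain and an age of postnatal day 28, and the study used male mice. It bought them at about this age and took the tissues later, so the label is not the age at which the hearts were taken. Each group had 1 library, which the study describes for the muscle as coming from a representative mouse, so no spread between mice exists and no p-value is given.

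In the hearts of cancer control mice, Itga6 and Lama4, a laminin receptor subunit and a laminin chain of blood vessels, were downregulated, while the RGD-binding subunits Itga5 and Itga8, the beta subunits Itgb3 and Itgb4 and the leukocyte integrins Itgam and Itgb2 were upregulated. Itga5, Itga8 and Itgb2 were upregulated with exercise in normal mice and downregulated with exercise in cancer mice. Lamb1 and Lamc1, chains of the main laminin trimers of the heart, were lowest in the cancer exercise heart, where Lamb3, a chain of epithelial basement membranes, was highest. Itgb1, the beta subunit shared by most of these receptors, differed by at most 1.23-fold in any comparison.

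Laminins are cross-shaped trimers of an alpha, a beta and a gamma chain that form the sheet of the basement membrane around cardiomyocytes and blood vessels. Integrins are receptors made of 1 alpha and 1 beta subunit that span the plasma membrane and tie laminin, collagen or proteins with an RGD motif, such as fibronectin, to the actin cytoskeleton. In the heart, integrins of cardiomyocytes carry force between the sarcomeres and the matrix, whereas leukocyte integrins let blood cells adhere to endothelium.

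Promoter sequences of Itga5 and Itga8 are shown because both genes were called in opposite directions by exercise in normal and in cancer mice, and that of Itgam because it was the most strongly upregulated leukocyte integrin. Itgb2 was called in opposite directions too, and its promoter is not shown. Each is the 250 bases before the RefSeq start (GRCm38.p6), written 5′ to 3′ on the strand of the gene. The Itga5 window lies on the minus strand at chr15:103366792-103367041, that of Itga8 on the minus strand at chr2:12301945-12302194 and that of Itgam on the plus strand at chr7:128062390-128062639. Capitals mark matches on either strand to the PU.1 core (GAGGAA) or the GC box (GGGCGG), with no overlap between matches in these windows.
Itga5: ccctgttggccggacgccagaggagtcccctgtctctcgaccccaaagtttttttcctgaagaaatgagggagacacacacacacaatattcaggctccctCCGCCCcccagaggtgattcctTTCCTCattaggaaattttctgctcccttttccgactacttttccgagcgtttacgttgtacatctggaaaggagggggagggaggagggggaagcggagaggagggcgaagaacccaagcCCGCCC
Itga8: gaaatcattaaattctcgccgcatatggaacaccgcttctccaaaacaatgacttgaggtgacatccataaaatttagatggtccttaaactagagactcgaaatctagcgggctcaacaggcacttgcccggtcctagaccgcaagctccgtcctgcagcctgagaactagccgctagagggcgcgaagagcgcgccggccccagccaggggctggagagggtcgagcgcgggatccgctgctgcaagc
Itgam: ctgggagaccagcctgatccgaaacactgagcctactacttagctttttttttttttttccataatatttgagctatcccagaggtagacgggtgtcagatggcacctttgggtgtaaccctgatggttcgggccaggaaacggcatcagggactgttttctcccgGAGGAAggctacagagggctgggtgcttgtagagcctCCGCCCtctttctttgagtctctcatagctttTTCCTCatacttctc

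The Itga5 window held GC boxes and a PU.1 core, the Itgam window held PU.1 cores and a GC box, and the Itga8 window held none of the motifs searched. RefSeq gave 22 promoters for 19 of the 29 described genes. The PU.1 core was found in 13 of these 22 promoters and in 23.25% of 32851 promoters of the same length, the GC box in 9 and in 32.74%. The AP-1 site (TGANTCA) and the TATA box (TATAAA) were in none of the 22, against 6.749% and 12.37% of all promoters. A match is a description of letters and not of a bound site.

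QuantSeq reads only the 3′ end of each mRNA, and values are log2(normalized read count + 1) as deposited. Whole reads recovered from them came to between 6595382 and 11546005 per library. The described genes took 8751, 10645, 11435 and 7544 reads of the E(−)T(−), E(+)T(−), E(−)T(+) and E(+)T(+) libraries. Globin reads made up 37.27% of the cancer exercise library, against 7.855% to 8.756% of the others. The authors' normalization takes up this difference, and the median log2 fold change over all genes tested lay between -0.018 and 0.003 in the 4 comparisons. A gene was called a DEG at a fold change of 2 or more, provided that either library of the pair reached 4 normalized reads. The fold change and the read count are those of the study, which does not say in how many libraries the count had to be reached. With 4 reads asked of both libraries, the calls of Lamc3, Itga11 and Itgb6 are lost, and no other call of a described gene. With 1 added to each normalized count, the fold changes of genes with few reads come out too small. Bracketed intervals are 95% Clopper-Pearson intervals of the read ratio on the log2 scale. They cover counting error only and not the spread between mice. PCR copies are not independent molecules, so the intervals may be too narrow even for that error. Of the 29 described genes, 19 were DEGs in at least 1 comparison (65.5%), against 39.8% of 13725 genes.

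**Figure D1:**
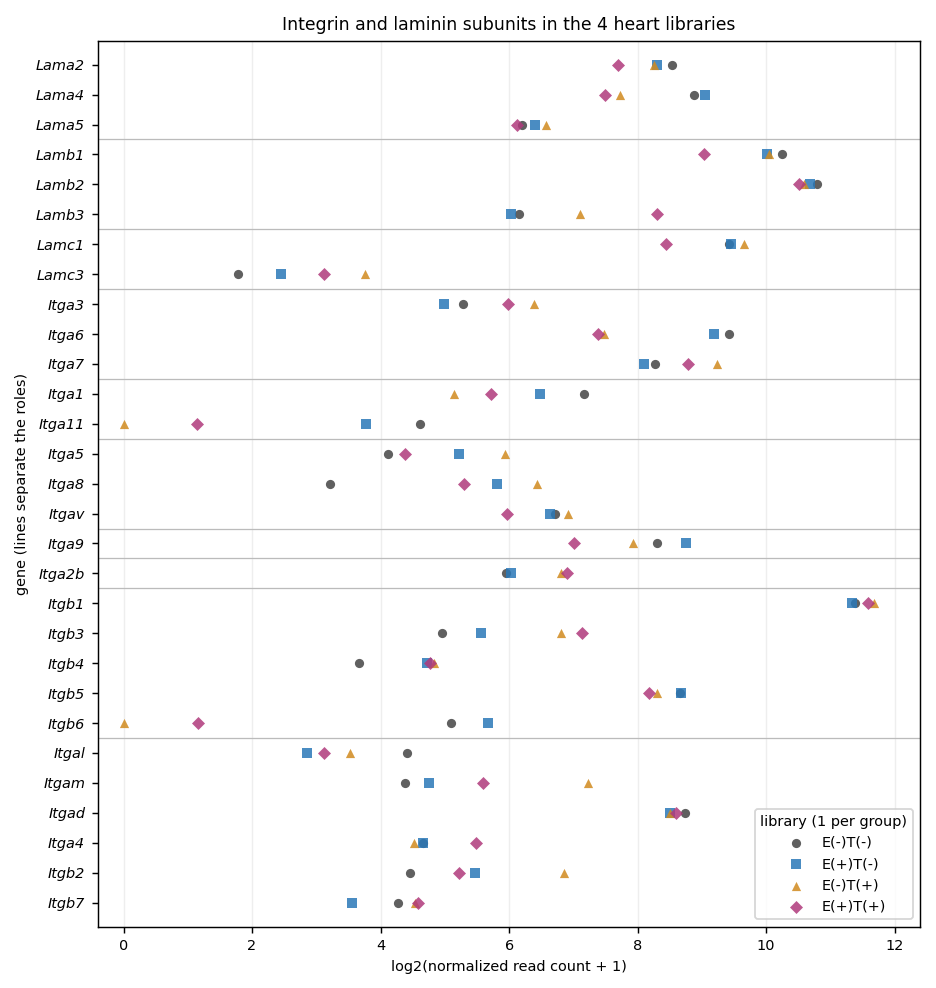
Level of each described gene (y axis) in the 4 heart libraries, as log2(normalized read count + 1) on the x axis, with 1 point per library and lines between the roles. Itga6 and Lama4 are lower in both tumor-bearing libraries, Itga11 and Itgb6 fall to at most 1 read there, and Itgb1 stays within a narrow range.

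The laminin alpha chains divided into a vascular chain that was downregulated in cancer and 2 chains without a call. Lama4, the alpha chain of endothelial basement membranes, had 471 normalized reads in the normal control library, 526 with exercise, 211 with cancer and 178 with both. Both tumor-bearing libraries were the low ones. It was 2.23-fold lower in E(−)T(+) than in E(−)T(−) (log2 -1.16, interval -1.40 to -0.93) and 2.94-fold lower in E(+)T(+) than in E(+)T(−) (log2 -1.55, interval -1.82 to -1.31). Lama2, the alpha chain of muscle laminin, had 369, 314, 304 and 206 normalized reads in the same order, with E(+)T(+) lowest. Lama5, a chain of mature vessels and epithelia, ranged from 68.9 to 94.4. Neither reached a 2-fold change in any comparison.

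Among the laminin beta and gamma chains, Lamb1 and Lamc1 were low and Lamb3 was highest in E(+)T(+), while Lamb2, the most abundant, had no call. Lamb1, a beta chain of muscle and vessels, had 1213 normalized reads in the normal control, 1029 in the normal exercise, 1055 in the cancer control and 521 in the cancer exercise library. It was downregulated 2.02-fold with exercise in cancer mice (log2 -1.02, interval -1.18 to -0.87), and its difference of -0.98 between E(+)T(+) and E(+)T(−) was just short of a call. Lamc1, the gamma chain of nearly all heart laminins, had 685, 698, 809 and 348 normalized reads in that order. Its level in E(+)T(+) was 2.32-fold below E(−)T(+) (log2 -1.22, interval -1.41 to -1.03) and 2.004-fold below E(+)T(−), the latter at the threshold (log2 -1.003). Lamb2, the beta chain of synaptic and vascular laminins, stayed between 1335 and 1818 reads, and its log2 fold changes lay between -0.21 and -0.07.

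Lamb3 is the beta chain that joins Lama3 in the laminin of epithelial anchoring structures. It had 70.2 normalized reads in the normal control library, 64.1 with exercise, 136 with cancer and 315 with both, so that both normal libraries were low and E(+)T(+) stood highest. It was upregulated 2.31-fold with exercise in cancer mice (log2 1.21, interval 0.93 to 1.51) and 4.85-fold in E(+)T(+) vs. E(+)T(−) (log2 2.28, interval 1.92 to 2.69). Its log2 fold change by cancer without exercise was 0.94, which is not a call. Its alpha partner Lama3 held 2, 3, 1 and 4 reads. Lamc3 held 2, 5, 14 and 7 reads, and its call in E(−)T(+) vs. E(−)T(−) had a ratio interval from 0.31 to 5.61.

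Markers of lung epithelium, which also uses Lamb3, were highest in the same library as Lamb3. Sftpa1, Sftpb, Sftpc and Sftpd followed the order of Lamb3 across the libraries, and Scgb1a1 did not. The 5 lung markers summed to 593 normalized reads in the normal control, 148 in the normal exercise, 522 in the cancer control and 1754 in the cancer exercise library, and only Sftpd was at 0 in a library, E(+)T(−). Scgb1a1 made up most of this sum in each library, with 467, 97.5, 363 and 1228 normalized reads. Sftpc, a surfactant protein of alveolar cells, held 58, 38, 87 and 292 reads. In E(+)T(+) vs. E(−)T(+), 3 of 5 lung markers were upregulated, and in E(−)T(+) vs. E(−)T(−) none. By exercise in normal mice 4 of 5 were downregulated, where the log2 fold change of Lamb3 was -0.13, and by cancer with exercise all 5 were upregulated. Their part in the level of Lamb3 was not tested.

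Of the laminin-binding integrin alpha subunits, Itga6 fell and Itga3 rose in tumor-bearing hearts. Itga6, which pairs with Itgb1 or Itgb4 and is abundant on endothelium, had 687 normalized reads in the normal control library, 579.8 with exercise, 177 with cancer and 165 with both. Each normal library held over 3 times the level of either tumor-bearing one. The downregulation was 3.87-fold without exercise (log2 -1.95, interval -2.19 to -1.72) and 3.49-fold with it (log2 -1.80, interval -2.08 to -1.55), whereas the exercise comparisons gave -0.24 and -0.10. Itga3, an epithelial laminin receptor subunit, had 38.0, 30.6, 83.1 and 62.3 normalized reads. It was upregulated 2.16-fold by cancer without exercise (interval 0.55 to 1.75), and its log2 fold change of 1.001 with exercise lay at the threshold. Itga7, the laminin receptor subunit of cardiomyocytes and skeletal muscle, had 307, 273, 599.9 and 439 normalized reads. Its log2 fold changes of 0.96 and 0.68 in the cancer comparisons were not calls. The exons of Itga7 share 9 bases with those of Mettl7b on the opposite strand, which held 60, 99, 226 and 138 reads. The shared bases lie at the 3′ ends of both genes, where QuantSeq reads. Without the strand, any reads within them cannot be assigned.

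Because both Itga7 and Itga6 bind laminin, their share of reads within a library was also compared, which does not depend on the scaling between libraries. Itga7 made up 29.74% of the reads of Itga3, Itga6 and Itga7 in E(−)T(−) (exact binomial interval 26.77% to 32.85%) and 30.91% in E(+)T(−) (28.02% to 33.91%). In E(−)T(+) the share was 69.74% (66.75% to 72.62%), and in E(+)T(+) it was 65.85% (61.93% to 69.61%). The intervals of the normal libraries did not overlap those of the tumor-bearing ones, while they overlapped within each pair that differed in exercise. The bases that Itga7 shares with Mettl7b limit this share too. Lama2 took 40.45%, 34.02%, 49.93% and 45.41% of the reads of Lama2, Lama4 and Lama5 in the 4 libraries, in the order used above, and the exact intervals of E(−)T(−) and E(+)T(+) overlapped. Lamb1 took 38.48% to 40.78% of the reads of Lamb1 and Lamb2 in the first 3 libraries but 26.28% in E(+)T(+) (24.27% to 28.38%). Itgb3 took 6.897% and 10.14% of the reads of Itgb3 and Itgb5 in the normal libraries, without and with exercise, and 26.03% and 32.48% in the tumor-bearing ones.

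**Figure D2:**
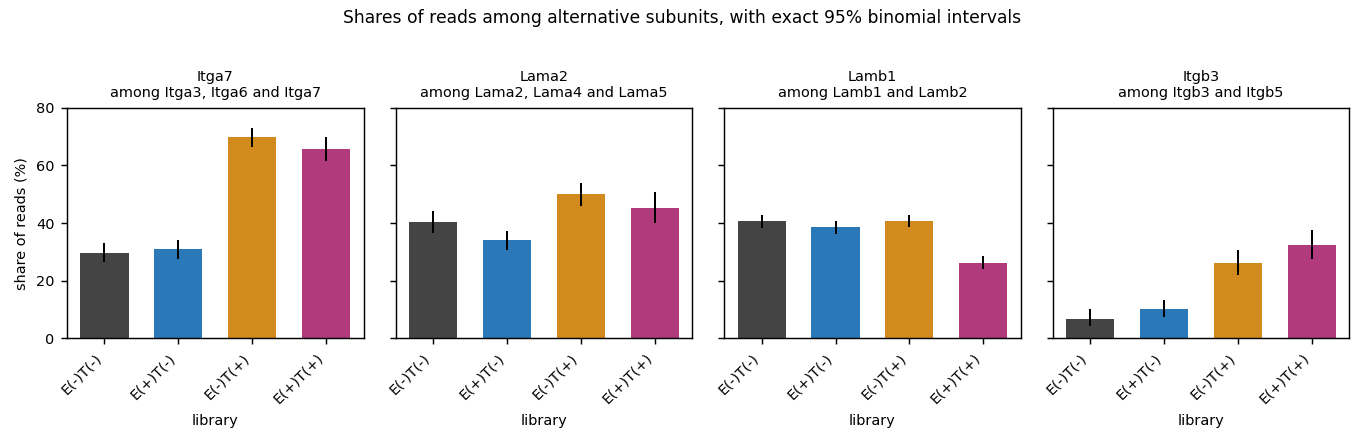
Share of reads (y axis, %) of 1 subunit among alternative subunits in each library (x axis), with bars from 0 and black lines for exact 95% binomial intervals, which cover counting error only. The Itga7 share is 29.74% and 30.91% in the normal libraries and 69.74% and 65.85% in the tumor-bearing ones, and the Lamb1 share is lowest in E(+)T(+) at 26.28%.

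Endothelial markers differed among themselves beside Itga6 and Lama4. Kdr, a VEGF receptor of endothelium, held 2296, 1887, 804 and 884 reads, and Cdh5, the endothelial cadherin, 736, 547, 398 and 450. Egfl7, Pecam1 and Cldn5, of the same list, were higher in both tumor-bearing libraries than in the normal ones. Egfl7 held 1145, 1145, 2549 and 2199 reads and Pecam1 1463, 1961, 2783 and 3027. Their log2 fold changes by cancer without exercise were 0.78 for Egfl7, 0.55 for Pecam1 and 0.08 for Cldn5. With exercise these were 1.21, 0.90 and 1.67, the first and last being calls. Both cancer comparisons had 4 of the 10 markers higher and 6 lower. Of 10 endothelial markers, 3 were downregulated and none upregulated in E(−)T(+) vs. E(−)T(−), while in E(+)T(+) vs. E(+)T(−) 2 were upregulated and none downregulated. Their summed level was 10270 normalized reads in the normal control, 8346 in the normal exercise, 8775 in the cancer control and 10390 in the cancer exercise library, with none at 0. In a bulk heart sample, fewer cells of a type and less RNA per cell cannot be told apart, and the part of endothelial cells in the levels of Itga6 and Lama4 was not tested. Schwann cell markers, whose cells also use Itga6 and Lama4, summed over 5 genes to 323.5 normalized reads in the normal control, 292.3 in the normal exercise, 204.3 in the cancer control and 167.8 in the cancer exercise library, with Cdh19 at 0 in both tumor-bearing libraries. In each cancer comparison 1 of the 4 tested, Mbp, was downregulated. Mbp, a myelin protein, held 69, 58, 15 and 9 reads, low in the tumor-bearing libraries as Itga6 and Lama4 were, and the part of Schwann cells was not tested either.

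Both collagen-binding alpha subunits with enough reads were lower in tumor-bearing hearts. Itga1, a collagen receptor subunit of vessels and fibroblasts, had 143 normalized reads in the normal control library, 88.7 with exercise, 34.2 with cancer and 51.5 with both. It was downregulated 4.09-fold by cancer without exercise (log2 -2.03, interval -2.62 to -1.53), and its log2 fold change with exercise was -0.77. Itga11, a collagen receptor subunit of fibroblasts, held 21, 14, 0 and 1 reads in the 4 libraries. With the 0 reads set to the 3 that a count of 0 allows, its log2 change in E(−)T(+) vs. E(−)T(−) would be -3.19, and the interval of the read ratio reached up to -2.76. In E(+)T(+) vs. E(+)T(−) the interval ran from -8.93 to -0.82.

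Itgb6, the epithelial beta subunit that activates latent TGF-beta with Itgav, was also at or near 0 in the tumor-bearing hearts. It held 29 reads in the normal control, 55 in the normal exercise, 0 in the cancer control and 1 in the cancer exercise library. At 3 reads in E(−)T(+) its log2 change against E(−)T(−) would be -3.65, with the interval of the read ratio reaching up to -3.26, and the interval in E(+)T(+) vs. E(+)T(−) ran from -10.84 to -2.97. With 0 and 1 reads in the tumor-bearing libraries, neither Itga11 nor Itgb6 could be compared between E(+)T(+) and E(−)T(+).

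The RGD-binding alpha subunits Itga5 and Itga8 were upregulated by exercise in normal mice and downregulated by it in cancer mice. Itga8, which pairs with Itgb1 in mesenchymal and smooth muscle cells and binds nephronectin, had 8.29 normalized reads in the normal control library, 55.2 with exercise, 85.9 with cancer and 38.3 with both. The normal control was thus the low library, with 7 reads. Itga8 was upregulated 6.05-fold by exercise in normal mice (log2 2.60, interval 1.65 to 4.16), upregulated 9.36-fold by cancer without exercise (log2 3.23, interval 2.32 to 4.77), and downregulated 2.21-fold by exercise in cancer mice (log2 -1.14, interval -1.76 to -0.59). Itga5, the alpha subunit of the main fibronectin receptor, had 16.2, 36.2, 60.3 and 19.8 normalized reads in the same order, with both single-treatment libraries high and the control and E(+)T(+) low. Its fold changes were 2.16 up with exercise in normal mice (log2 1.11, interval 0.26 to 2.17), 3.55 up with cancer (log2 1.83, interval 1.06 to 2.85) and 2.95 down with exercise in cancer mice (log2 -1.56, interval -2.45 to -0.84). Itgav, the shared alpha subunit of vitronectin receptors, ranged from 61.3 to 120 normalized reads and was lowest in E(+)T(+), without a call.

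The exons of Itga8 share 346 bases with those of E030013I19Rik on the opposite strand. Itga8, on the minus strand, starts at chr2:12301922, and E030013I19Rik starts at chr2:12300946. The shared bases thus lie at the 5′ ends of both genes, away from the 3′ ends that QuantSeq reads. The strand setting of the counting is not given in the sources used here, so any reads within the shared bases cannot be assigned. E030013I19Rik held 0, 37, 6 and 9 reads, with E(+)T(−) highest. The higher level of Itga8 in E(−)T(+) came with 6 reads of E030013I19Rik beside 97 of Itga8.

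Nephronectin and other matrix ligands showed levels that can be set beside these receptors. Npnt, which encodes nephronectin, held 16, 83, 81 and 52 reads, low in the normal control as Itga8 was. Fn1, which encodes fibronectin, held 198, 317, 866 and 201 reads, with E(−)T(+) highest. Contractile smooth muscle markers were also higher with exercise in normal mice, and the other markers of this list were not. Cnn1, a smooth muscle actin-binding protein, held 35, 332, 217 and 168 reads, and Tagln 131, 706, 783 and 603. Of 9 smooth muscle and pericyte markers, 4 were upregulated in E(+)T(−) vs. E(−)T(−), namely Cnn1, Tagln, Acta2 and Myh11, and 3 in E(−)T(+) vs. E(−)T(−). The other 5, Rgs5, Kcnj8, Notch3, Pdgfrb and Cspg4, had log2 fold changes from -0.44 to -0.09 in E(+)T(−) vs. E(−)T(−), and the median of the list was -0.09. Their summed level was 4632 normalized reads in the normal control, 7994 in the normal exercise, 6150 in the cancer control and 6120 in the cancer exercise library, with none at 0, and their part in the level of Itga8 was not tested.

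Itga9, a receptor subunit for tenascin-C and osteopontin, had 313 normalized reads in the normal control library, 433 with exercise, 243 with cancer and 128 with both. E(+)T(+) was lowest, 3.36-fold below E(+)T(−) (log2 -1.75, interval -2.06 to -1.46). With exercise in cancer mice the log2 fold change was -0.92, short of a call. Among its ligands, Tnc (tenascin-C) held 7, 21, 78 and 4 reads and Spp1 (osteopontin) 7, 17, 174 and 46, both highest in E(−)T(+).

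Among the beta subunits the abundant Itgb1 had no call. Of those with fewer reads, Itgb3 was upregulated in both cancer comparisons and Itgb4 only in the one without exercise (log2 0.05 with it). Itgb1 held 2329, 2867, 3724 and 2800 reads, and its log2 fold changes lay between -0.10 and 0.30. It made up 84.85%, 83.03%, 87.85% and 87.06% of the reads of the beta subunits outside the leukocyte set. Itgb3, the beta subunit of the platelet fibrinogen receptor and of the vitronectin receptor, had 30.04, 46.0, 111 and 139 normalized reads. Both tumor-bearing libraries were above both normal ones, by 3.62-fold without exercise (log2 1.85, interval 1.28 to 2.57) and 2.97-fold with it (log2 1.57, interval 1.11 to 2.09). Itgb4, the partner of Itga6 in epithelia, had 11.6, 25.4, 27.4 and 26.2 normalized reads, the normal control being low with 10 reads. Its calls were 2.09-fold up with exercise in normal mice (interval 0.06 to 2.35) and 2.25-fold up with cancer without exercise (interval 0.19 to 2.45). Itgb5, a vitronectin receptor subunit, had log2 fold changes between -0.50 and 0.02 and no call.

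Itga2b, the platelet partner of Itgb3, had 60.9, 64.1, 111 and 118 normalized reads, with log2 fold changes of 0.86 and 0.87 in the cancer comparisons that are not calls. Platelet markers were also higher in both cancer comparisons. Their summed level was 850 normalized reads in the normal control, 1614 in the normal exercise, 3277 in the cancer control and 2474 in the cancer exercise library, and Gp6 was at 0 in all libraries but E(−)T(+). Of the 7 platelet markers with enough reads, 4 were upregulated by exercise in normal mice, 4 by cancer without exercise and 2 by cancer with exercise. Pf4, a chemokine of platelet granules, held 558, 1215, 3175 and 1604 reads. With 2801 normalized reads in the cancer control, Pf4 made up most of the sum there. In E(+)T(+) vs. E(−)T(+), Pf4 was the 1 marker of 7 that was lower (log2 -0.675), and the other 6 were higher. The median of the 7 was 0.80 in that comparison, and Ppbp was upregulated (log2 1.18). The part of platelets in the levels of Itgb3 and Itga2b was not tested.

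The leukocyte integrins were carried by Itgam and Itgb2, which together form the complement receptor of macrophages and neutrophils. Itgam had 19.7 normalized reads in the normal control library, 26.1 with exercise, 149 with cancer and 47.1 with both. Itgb2, the beta subunit of this family, had 20.9, 43.4, 114 and 36.2. The cancer control stood apart as the high library for both. Itgam was upregulated 7.22-fold by cancer without exercise (log2 2.85, interval 2.21 to 3.74) and downregulated 3.11-fold by exercise in cancer mice (log2 -1.64, interval -2.17 to -1.17). Itgb2 was upregulated 5.27-fold by cancer (log2 2.40, interval 1.75 to 3.26), downregulated 3.10-fold by exercise in cancer mice (log2 -1.63, interval -2.25 to -1.10) and upregulated 2.03-fold by exercise in normal mice (log2 1.02, interval 0.27 to 1.94). Itgam took 4.156% and 6.621% of the reads of the alpha partners of Itgb2 in the normal libraries, 28.38% in the cancer control and 10.57% with cancer and exercise. Most of these reads were of Itgad, whose reads are of uncertain source. Without Itgad the shares were 43.59% (exact interval 27.81% to 60.38%) and 72.5% (56.11% to 85.4%) in the normal libraries, 91.8% (86.84% to 95.34%) in the cancer control and 82.69% (69.67% to 91.77%) with cancer and exercise, so that both tumor-bearing libraries were above the normal control and their intervals overlapped each other.

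Macrophage and neutrophil markers followed different orders across the libraries. The 12 macrophage and monocyte markers summed to 3966 normalized reads in the normal control, 5054 in the normal exercise, 9400 in the cancer control and 5019 in the cancer exercise library, with Marco at 0 in the normal exercise library. By cancer without exercise, 8 of 12 were upregulated, against 13.0% of all genes tested. In E(+)T(+) vs. E(−)T(+), 6 of 12 were downregulated, against 8.56%. In the first of these comparisons 3 were lower, Ccr2 (log2 -0.51), Adgre1 (-0.37) and Csf1r (-0.11). In the second 2 were higher, Ly6c2 (0.39) and Ccr2 (0.35). Cd68, a lysosomal protein of macrophages, held 78, 96, 371 and 95 reads. The 10 neutrophil markers in the data summed to 129, 90.2, 3114 and 5961 normalized reads, with Camp, Mpo and Elane at 0 in the normal control, Ltf with exercise and Elane with cancer and exercise. S100a8, a calcium-binding protein abundant in neutrophils, held 40, 38, 1511 and 2537 reads, so that E(+)T(+) was above E(−)T(+). The part of either cell type in the levels of Itgam and Itgb2 was not tested.

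**Figure D3:**
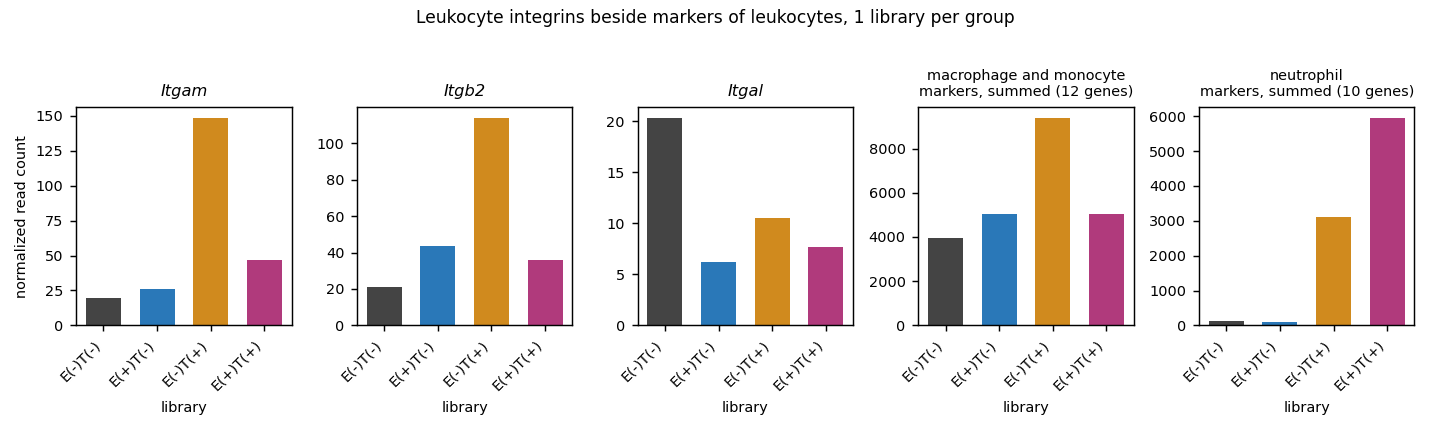
Normalized read count (y axis, from 0) of Itgam, Itgb2 and Itgal and summed normalized read counts of 12 macrophage and monocyte markers and 10 neutrophil markers in each library (x axis), 1 library per group. Itgam, Itgb2 and the macrophage sum are highest in E(−)T(+), the neutrophil sum is highest in E(+)T(+), and Itgal is highest in E(−)T(−).

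The other leukocyte integrins had few reads or an uncertain source. Itgal, the alpha subunit of the lymphocyte receptor for ICAM proteins, held 18, 7, 12 and 7 reads and was downregulated 2.95-fold by exercise in normal mice (log2 -1.56, interval -3.21 to -0.38). Itgb7, the beta subunit of gut-homing lymphocytes, held 16, 12, 25 and 21 reads, and its 2.03-fold rise in E(+)T(+) vs. E(+)T(−) had an interval that included 0 (-0.01 to 2.24). Itga4, the alpha subunit that binds VCAM-1, held 21, 27, 25 and 40 reads without a call. Itgad held 370, 398, 409 and 355 reads, the most of this set, but its annotated exons share 70 bases with Cox6a2 on the opposite strand at chr7:128205435-128206387 (GRCm38). Cox6a2, a cytochrome c oxidase subunit of heart and skeletal muscle, held 47547, 60801, 65135 and 60010 reads, so that the reads of Itgad amounted to 0.7782%, 0.6546%, 0.6279% and 0.5916% of them, and reads of Itgad and Cox6a2 cannot be told apart without the strand. The lymphocyte markers summed to at most 73.7 normalized reads in any library, and 5 of 11 were at 0 in E(−)T(+).

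Adipocyte markers differed widely between the libraries and stood beside all comparisons. They summed to 2026 normalized reads in the normal control, 526 in the normal exercise, 434 in the cancer control and 2582 in the cancer exercise library, with Lep at 0 in all but the normal control and Plin1 in the cancer control. Of 5 tested, all were downregulated by exercise in normal mice and by cancer without exercise, all were upregulated by exercise in cancer mice and 4 by cancer with exercise. Adipoq, the adipocyte hormone adiponectin, held 317, 78, 76 and 356 reads. Their part in the calls of integrins and laminins was not tested.

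Exercise in normal mice, E(+)T(−) vs. E(−)T(−), addresses the effect of training alone. Itga5, Itga8 and Itgb4 were the upregulated genes among 23 outside the leukocyte set (13%), against 4.88% of 13415 genes tested, and none was downregulated, against 5.29%. Of 6 leukocyte integrins, Itgb2 was upregulated and Itgal downregulated. All 8 laminin chains described were without a call, with a median log2 fold change of -0.04, and the median over the 23 genes was 0.02. Matrix ligands of integrins were the moving neighbours. Of 12 tested, 4 were upregulated, namely Thbs1, Npnt, Tnc and Postn, with Thbs1 (thrombospondin-1) at 17 and 134 reads. None of 26 integrin adaptors and none of 12 genes of the dystroglycan complex was called, and of 13 other basement membrane genes Col4a3, at 5 and 2 reads, was downregulated.

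Exercise in cancer mice, E(+)T(+) vs. E(−)T(+), addresses what training does to the tumor-bearing heart. Lamb1, Lamc1, Itga5 and Itga8 were downregulated among 21 genes tested outside the leukocyte set (19%), against 8.56% of 13569 genes, and Lamb3 was upregulated (4.76%), against 7.78%. Of 6 leukocyte integrins, Itgam and Itgb2 were downregulated. The median log2 fold change of the 21 was -0.41, with 17 lower and 4 higher, against -0.01 over all genes. Of 13 other basement membrane genes, all were lower in value and 3 were downregulated, namely Col4a5, Col15a1 and Nid2. Nid2, a nidogen that links laminin to collagen IV, held 99 and 31 reads in E(−)T(+) and E(+)T(+). Matrix ligands were downregulated in 6 of 14, with Tnc (log2 -3.67), Fn1 (-1.79), Fbn1 (-1.75) and Spp1 (-1.60) leading. Among the ligands and cofactors of leukocyte integrins, Icam2, Icam4 and Cdh1 were upregulated and Apbb1ip, an adaptor that activates leukocyte integrins, was downregulated from 360 to 106 reads. No adaptor and no gene of the dystroglycan complex was called.

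Fibroblast markers were lower in the same comparison. Col1a1 and Col3a1, fibrillar collagen chains, held 522, 1361, 2907 and 275 reads and 1049, 2411, 4941 and 402 reads. The 8 fibroblast markers summed to 26790 normalized reads in the normal control library, 32230 with exercise, 56990 with cancer and 33600 with both, with none at 0. Dcn made up most of this sum, with 20420, 22490, 40450 and 29410 normalized reads. Col1a1, Col1a2, Col3a1, Lum and Pdgfra were lowest in E(+)T(+), and Dcn, Dpt and Tcf21 were not. In E(+)T(+) vs. E(−)T(+), 4 of 8 were downregulated, and Tcf21, a fibroblast transcription factor, had a log2 fold change of 0.15. Their part in the levels of Lamb1, Lamc1 and Itga5 was not tested. The calls of this comparison depended on whether globin reads entered the scaling. With scaling by the median of ratios, or to totals without globin reads, no call of a described gene was lost or gained. With libraries scaled to their total reads, which counts the globin reads of E(+)T(+), the median of all genes moved to -0.59 and that of the 21 genes to -0.98, with 10 downregulated and none upregulated, and Lamb3 was no longer called.

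**Figure D4:**
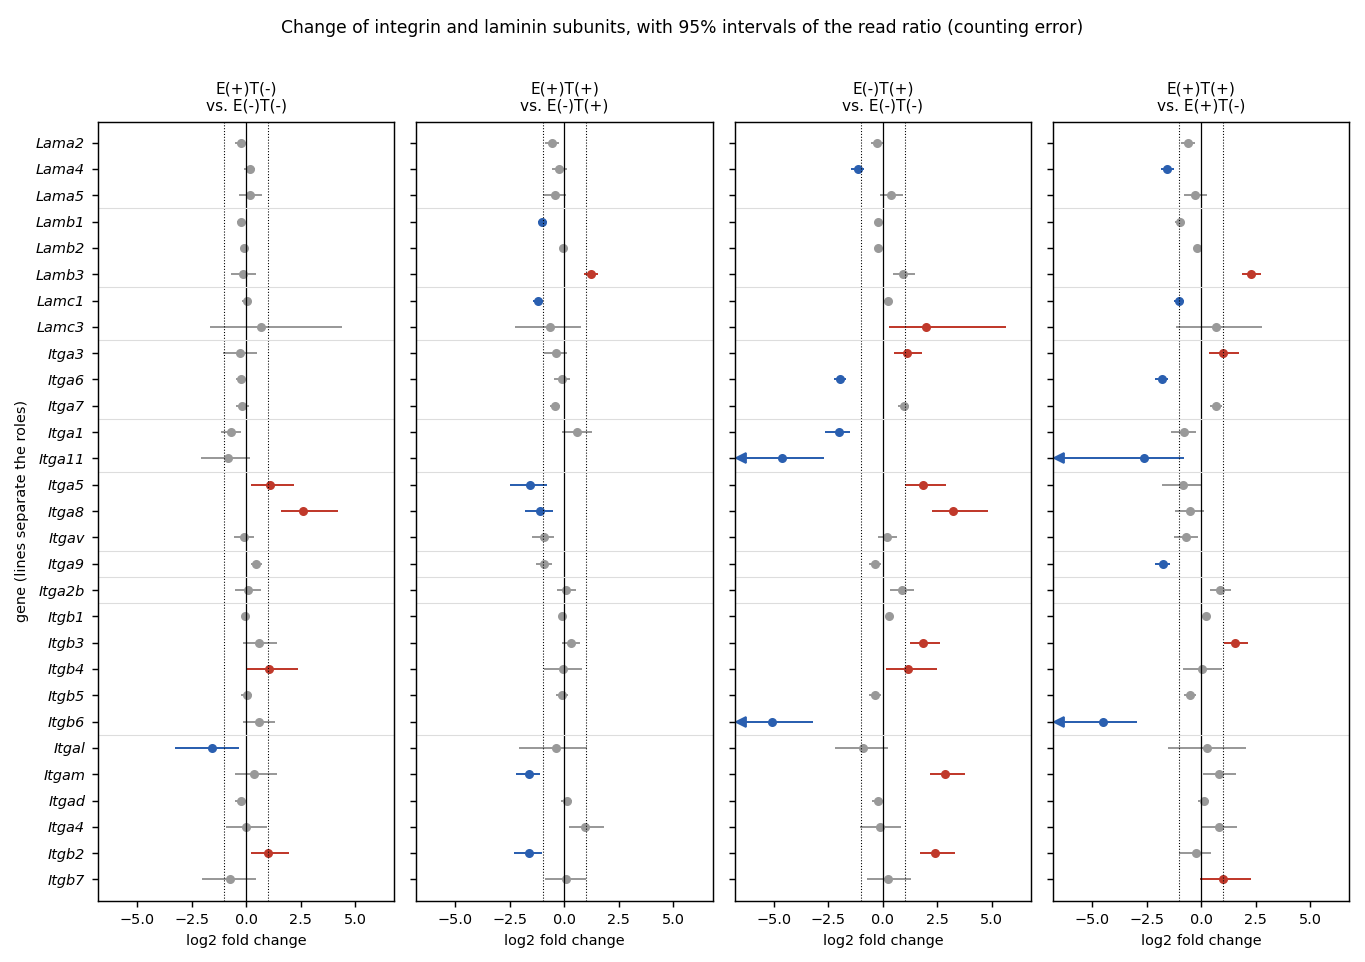
Log2 fold change (x axis) of each described gene (y axis) in the 4 comparisons, with lines for 95% intervals of the read ratio (counting error only), dotted lines at 2-fold, red for upregulated, blue for downregulated and grey for no call. Arrowheads mark intervals that run past the axis, for Itga11 and Itgb6, and the most calls are in E(−)T(+) vs. E(−)T(−).

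Exercise calls of opposite sign in normal and cancer mice were held by 3 of the 27 described genes tested in both comparisons, Itga5, Itga8 and Itgb2, against 1.89% of 13259 genes. The libraries of these comparisons are separate, and the difference between them has no test with 1 library per group. Itgam and Lamc1, called in cancer mice, had log2 fold changes of 0.39 and 0.03 in normal mice, and Itgb4, called in normal mice, had -0.06 in cancer mice. Itga5, Itgb2 and Itgb4 held 14, 18 and 10 reads in the normal control, and with a pseudocount of 4 in place of 1 their calls in normal mice were lost, whereas that of Itga8 was not.

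**Figure D5:**
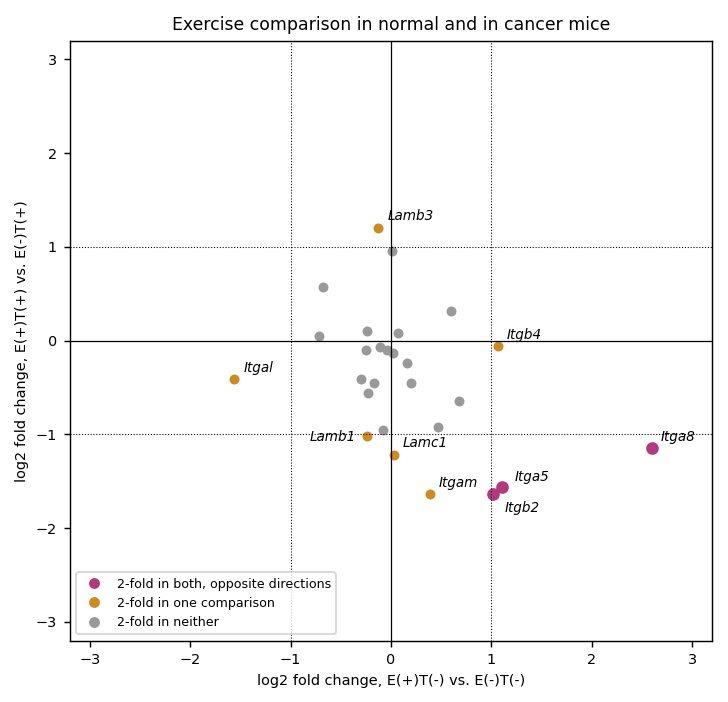
Log2 fold change of each described gene with exercise in normal mice (x axis, E(+)T(−) vs. E(−)T(−)) and in cancer mice (y axis, E(+)T(+) vs. E(−)T(+)), with dotted lines at 2-fold. Itga5, Itga8 and Itgb2 lie beyond 2-fold to the right and below, and no gene lies in the opposite corner.

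Cancer without exercise, E(−)T(+) vs. E(−)T(−), had the most calls. Lamc3, Itga3, Itga5, Itga8, Itgb3 and Itgb4 were upregulated, 6 of 23 genes outside the leukocyte set (26.1%), against 13.0% of 13635 genes. Lama4, Itga6, Itga1, Itga11 and Itgb6 were downregulated (21.7%), against 12.2%. Of 6 leukocyte integrins, Itgam and Itgb2 were upregulated. The median log2 fold change of the 23 was 0.24, with 13 higher and 10 lower, so the set did not move one way. Matrix ligands rose in 8 of 14 and Vtn, which encodes vitronectin, fell. Fgb, a fibrinogen chain, held 0 reads in E(−)T(−) and 66 in E(−)T(+), and Spp1 held 7 and 174. Among 26 adaptors, Cav3, the caveolin of muscle, was upregulated (log2 1.49), while Fblim1, a filamin-binding adaptor (-1.51), and Cav1, the caveolin of endothelium (-1.27), were downregulated. Sspn, the sarcospan of the dystroglycan complex, was downregulated (-1.31), as was agrin (Agrn, -1.13), a basement membrane proteoglycan that binds laminin. Icam1, the endothelial ligand of Itgb2 receptors, was upregulated from 51 to 233 reads, as was Apbb1ip, and Icam2 and Jam3 were downregulated.

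Cancer with exercise, E(+)T(+) vs. E(+)T(−), had more downregulated than upregulated genes. Lama4, Lamc1, Itga6, Itga11, Itga9 and Itgb6 were downregulated, 6 of 23 (26.1%), against 10.2% of 13600 genes, and Lamb3, Itga3 and Itgb3 were upregulated (13%), against 10.1%. Of 6 leukocyte integrins, Itgb7 was upregulated. This comparison and the one without exercise use separate libraries. The log2 fold changes of Itga8 (-0.51), Itga5 (-0.84), Itgam (0.83) and Itgb2 (-0.25) with exercise stood beside 3.23, 1.83, 2.85 and 2.40 without it, and the difference was not tested. Of 13 other basement membrane genes, 6 were downregulated, with Col15a1, a collagen of vessel and muscle basement membranes, falling from 882 to 100 reads and Col4a5 from 58 to 10. Dag1, the dystroglycan that binds laminin on cardiomyocytes, had a log2 fold change of 0.03, and Itgb1bp2, a muscle protein that binds the tail of Itgb1, had 0.24. With libraries scaled to their total reads the median of all genes moved to -0.73, 13 of the 23 genes were downregulated and 1 upregulated, and with the globin reads left out of the totals the split was 8 and 2, the median of all genes moving to -0.19. Total-read scaling lost the upregulation of Itga3, Itgb3 and Itgb7 in this comparison, and that of Itga3 in E(−)T(+) vs. E(−)T(−), where the median of all genes moved to -0.17.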

How the data were processed

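Heart mRNA-seq data of 4 CDF1 mouse libraries, 1 per group, were analysed. Per the labels, QuantSeq libraries were prepared from total RNA, and the submitters' processing notes name Bowtie2, bedtools and the mm10 build, with versions not given in the sources used here. According to the paper, the authors counted reads per gene and used a quantile normalization of edgeR. What they deposited is a log2 value per gene and library, made by the authors from normalized read counts.

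The members, gene lists and alternatives were chosen with earlier results of these data known. Genes were taken by symbol among 23282 entries, and none of the members was listed more than once. To recover whole reads, the sizes of the libraries and 1 dispersion (0.149) were fitted so that log2 of the quantile-adjusted count plus 1 gave the deposited values. These were matched within 0.00054, and 100% of 25460 values from 5 to 99 reads came within 0.1 of a whole number. Recovery and calls were tested on simulated data.

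DEGs were called at the fold change of 2 and the 4 normalized reads that the study names, here in either library. Not reported here are 1 of the matching genes, which enters no other count, and 1 gene of the Schwann cell list, which enters none. All described members are named, and of each gene list at most 4 genes, those that changed most among genes averaging 16 or more normalized reads. Counts over a list cover genes averaging 4 or more. Col4a3, Cdh1, Postn, Icam2, Jam3, Dag1, Itgb1bp2, Tcf21, Col1a1, Cdh5, Kcnj8, Cspg4, Cdh19 and Lep were named in places after their values were seen. So were Adgre1, Csf1r, Ccr2, Ly6c2, Sftpa1, Sftpb, Sftpd, Scgb1a1, Dcn, Lum, Dpt, Col1a2, Pdgfra, Egfl7, Cldn5 and Pecam1. Near-identical globin genes may share reads. Ly6g, Epb42 and Ahsp were not analysed here. Gene positions and shared exons come from GENCODE on GRCm38, which is mm10, and promoters from RefSeq on GRCm38.p6. Alternatives covered scaling, count minimum, pseudocount, depth and membership. The software was matplotlib 3.10.9, pandas 2.3.3, scipy 1.17.1, numpy 2.4.6 and Python 3.11.15.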

Additional observations from a re-analysis of the deposited data

Results flagged for a closer look

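For Itga5, Itga8 and Itgb2, the exercise comparison gave a rise of at least 2-fold in normal mice and a fall of at least 2-fold in cancer mice. The log2 fold changes were 1.11 and -1.56 for Itga5, 2.60 and -1.14 for Itga8, and 1.02 and -1.63 for Itgb2, normal mice first. With 1 library per group the difference between the comparisons was not tested.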

How the results depend on the processing

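No paired analysis was possible because each group had 1 library, and for the same reason no library could be left out. Counts of called genes were computed under 11 alternatives, giving 88 values, of which 77 stayed within 1.5 times the reported count, 11 moved further and none reversed. With libraries scaled to total reads or thinned to the smallest library, 10 genes outside the leukocyte set were called in E(+)T(+) vs. E(−)T(+) in place of 5. In E(+)T(+) vs. E(+)T(−) they numbered 14 and 15 in place of 9, and under these settings, with globin reads left out of the totals and with a pseudocount of 4, 0 leukocyte integrins were called in that comparison in place of 1, Itgb7 being lost. In E(+)T(−) vs. E(−)T(−), a pseudocount of 4 left 1 call outside the leukocyte set in place of 3 and 1 leukocyte call in place of 2, and a mean of at least 16 for membership also left 1 leukocyte call. Scaling to total reads added Itgal as a downregulated leukocyte integrin in E(−)T(+) vs. E(−)T(−), beside 2 upregulated. Of 580 values of single genes, 486 stayed within their counting interval, 94 moved further and none changed sign as a call.

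Leaving out the members that share exons with another gene with reads (Itga4, Itga7, Itga8 and Itgad), a choice made after seeing the data, left the counts outside the leukocyte set at 2 in normal and 4 in cancer mice for exercise, and at 10 without and 9 with exercise for cancer. Without Itgad, a choice also made after seeing the data, the share of Itgam among the alpha partners of Itgb2 moved to 43.59%, 72.5%, 91.8% and 82.69%. The cause of these differences was not tested, apart from the globin share of E(+)T(+), which enters the totals directly. Depth limits Lamc3, Itga8, Itga11, Itgb6 and Itgal, each with a library under 10 reads.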
